A study of Caenorhabditis elegans with 2 samples.

Results

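AMA-1 is the largest subunit of RNA polymerase II, and its occupancy was mapped by chromatin immunoprecipitation and sequencing (ChIP-seq). The peaks described here are those at lone gene starts on the autosomes, meaning protein-coding starts with no opposite-strand start close by. Both samples were whole late embryos of the Caenorhabditis elegans wild isolate N2, of both sexes pooled and of unknown age. They were biological replicates 1 and 2 of 1 group, and the labels name no treatment and no genetic change. No control file was analysed here, and no source used here states the number of reads, so the depth behind each value is unknown. Whole embryos mix all cell types, so strong occupancy in few cells and weak occupancy in many cannot be told apart.

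Members were chosen by position and by height in the authors' ce11 list of relaxed peaks called on both replicates pooled, which held 30000 peaks. A peak was kept when it was among the 5000 highest by the authors' signal value, lay on an autosome, and had its summit within 250 bp of a protein-coding start. The summit also had to lie over 250 bp from any protein-coding end and over 250 bp from every snRNA, snoRNA, miRNA and tRNA gene. The nearest start could have no opposite-strand protein-coding start within 1000 bp upstream. Genes were those of Ensembl release 115 on the same assembly. The rule found 451 of 4406 autosomal peaks, at 440 genes, of which 11 had 2 summits. Of the other autosomal peaks, 124 lay at divergent starts, 592 at gene ends, 321 near both a start and an end, 162 near a short non-coding gene and 2756 elsewhere. Because signal value chose the members, their pooled heights are given as a description only.

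RNA polymerase II is recruited to promoters, begins transcription, and can slow just inside a gene before it elongates. In C. elegans many pre-messenger RNAs are trans-spliced: a spliced leader replaces the first stretch of the transcript, and the annotated gene start is then the splice acceptor rather than the place where the polymerase began. A lone start allows upstream and downstream positions to be told apart, which a pair of divergent starts does not, since upstream of one gene is then also near the other.

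The stretches below are the 200 bases before the start of the 8 genes on chromosomes II to V with the highest members whose summit lay up to 160 bp upstream and whose stretch overlaps no annotated exon, read from the RefSeq genome sequence (ce11) on the gene's strand, 5′ to 3′. They are shown because the summit fell in or beside sequence upstream of the annotated start. Each ends at the base before the start. Capitals mark 6 searched words on either strand and the acceptor word TTTCAG where it ends within 10 bp of the start. The searched words were TATAAA, the core of the TATA box, then TTTTTTTT, a run of thymines, then GAGAGA, a purine repeat, then the longer word CTGCGTCTC, then TGATAA, which GATA factors bind, and last the palindrome CACGTG, an E-box. Overlapping copies are joined in 1 capital run.
dpy-17: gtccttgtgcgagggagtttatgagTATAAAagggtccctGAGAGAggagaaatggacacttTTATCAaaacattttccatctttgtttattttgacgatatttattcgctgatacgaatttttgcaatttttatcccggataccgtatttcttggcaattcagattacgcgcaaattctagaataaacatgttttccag
daf-19: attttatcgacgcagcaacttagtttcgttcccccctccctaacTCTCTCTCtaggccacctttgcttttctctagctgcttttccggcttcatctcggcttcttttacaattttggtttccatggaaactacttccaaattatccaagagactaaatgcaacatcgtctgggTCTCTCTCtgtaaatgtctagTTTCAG
aqp-2: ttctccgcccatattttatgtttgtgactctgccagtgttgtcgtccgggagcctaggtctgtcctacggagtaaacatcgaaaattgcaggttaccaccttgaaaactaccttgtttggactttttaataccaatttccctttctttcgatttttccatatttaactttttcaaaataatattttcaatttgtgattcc
hmg-1.2: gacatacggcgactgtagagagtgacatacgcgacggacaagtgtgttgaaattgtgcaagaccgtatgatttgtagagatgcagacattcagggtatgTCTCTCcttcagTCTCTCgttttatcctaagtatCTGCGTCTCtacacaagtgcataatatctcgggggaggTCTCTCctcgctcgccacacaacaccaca
cav-1: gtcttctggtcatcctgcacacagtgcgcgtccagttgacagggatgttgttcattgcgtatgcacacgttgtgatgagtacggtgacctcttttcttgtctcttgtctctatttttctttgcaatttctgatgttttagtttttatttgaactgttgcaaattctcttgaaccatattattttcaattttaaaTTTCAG
hmg-1.1: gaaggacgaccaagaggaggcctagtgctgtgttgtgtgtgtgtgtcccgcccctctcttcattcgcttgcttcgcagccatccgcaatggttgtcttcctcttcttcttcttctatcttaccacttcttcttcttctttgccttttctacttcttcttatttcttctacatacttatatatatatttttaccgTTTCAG
cki-1: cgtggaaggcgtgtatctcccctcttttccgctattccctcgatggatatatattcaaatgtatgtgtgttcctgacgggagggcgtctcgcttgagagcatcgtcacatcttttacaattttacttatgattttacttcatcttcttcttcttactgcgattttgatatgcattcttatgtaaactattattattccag
ceh-57: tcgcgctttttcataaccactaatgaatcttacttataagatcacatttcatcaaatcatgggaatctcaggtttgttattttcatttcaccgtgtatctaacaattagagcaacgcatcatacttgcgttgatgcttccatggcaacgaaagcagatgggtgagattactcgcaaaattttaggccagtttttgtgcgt
The windows are chrIII:5107130-5107329 on the plus strand for dpy-17, chrII:10169347-10169546 on the minus strand for daf-19, chrIII:6280180-6280379 on the plus strand for hmg-1.2, chrIV:9772310-9772509 on the plus strand for cav-1, chrII:14250495-14250694 on the plus strand for hmg-1.1, chrII:7811040-7811239 on the plus strand for cki-1, chrII:9261982-9262181 on the minus strand for aqp-2 and chrII:10367297-10367496 on the minus strand for ceh-57. The stretches of daf-19, which also holds GAGAGA on the opposite strand, of cav-1 and of hmg-1.1 end in TTTCAG, the acceptor word to which the spliced leader SL1 is commonly joined. That of dpy-17 holds TATAAA as well as GAGAGA and, on the opposite strand, TGATAA. That of hmg-1.2 holds CTGCGTCTC and 3 copies of GAGAGA on the opposite strand. Those of cki-1, aqp-2 and ceh-57 hold none of the words. A match is a description of these letters and not a bound site.

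In the pooled list and in replicate 1, summits were densest from 100 bp upstream of lone starts to 299 bp inside the gene, while replicate 2 had a broader and flatter rise, with 69.1 per Mb already in the bin that ends 200 bp upstream and 66.0 per Mb still at 300 to 399 bp inside. Around all lone starts, the stretches where a summit would meet the conditions on ends and short non-coding genes were counted as eligible sequence, up to 1000 bp from the nearest start. This wider profile was added after the data were seen. The pooled list had 79.3 summits per eligible Mb within 250 bp of a lone start (451 summits). It had 31.6 per Mb from 251 to 1000 bp upstream (243 summits) and 40.7 per Mb from 251 to 1000 bp inside the gene (352 summits). The lists of the 5000 highest peaks of each replicate had the same order of the 3 zones: replicate 1 had 74.2 per Mb within 250 bp, 27.4 upstream and 40.3 inside, and replicate 2 had 67.8, 42.7 and 52.7. The contrast was weaker in replicate 2, whose zones outside the window were denser. In the pooled list the highest 100 bp bin was from 200 to 299 bp inside the gene (100.4 per Mb), and the next one, from 300 to 399 bp, held 49.9 per Mb.

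**Figure D1:**
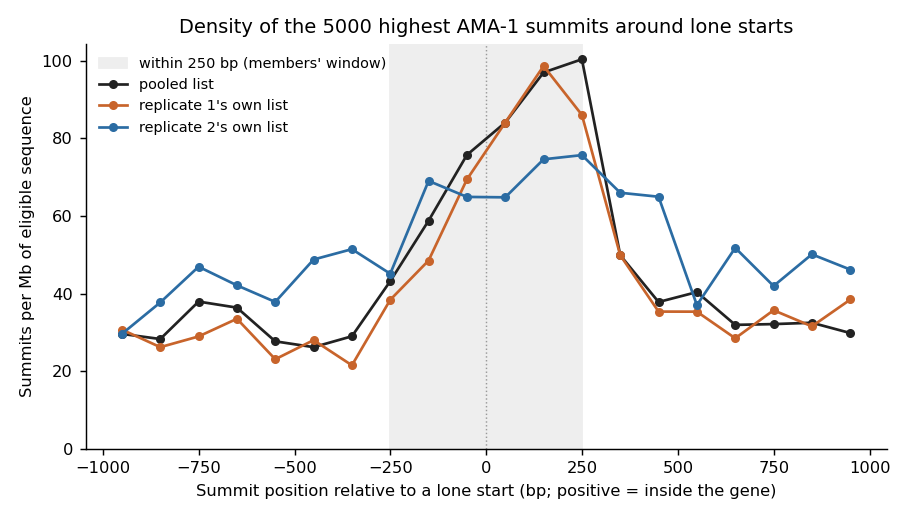
Density of the 5000 highest autosomal summits in 100 bp bins around lone starts (x axis, bp from the annotated start, positive inside the gene; y axis, summits per Mb of eligible sequence) in the pooled list and in each replicate's own list, with the members' window of 250 bp shaded. All 3 lines are highest within or just beside the window, and replicate 2's line is flatter, from 29.6 to 75.7 per Mb.

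Within the window the density climbed towards the gene body. In the pooled list it was 50.3 per Mb at 151 to 250 bp upstream (53 summits), 69.7 at 51 to 150 bp upstream (76 summits), 78.1 around the start (88 summits), 85.3 at 50 to 149 bp inside (99 summits) and 107 at 150 to 250 bp inside (135 summits). Divergent starts ran the other way, with 140, 101.1, 93.2, 66.2 and 58.2 per Mb over the same bins (27, 28, 30, 21 and 18 summits). Replicate 1's own list climbed as the pooled one did, with 47.4, 66.1, 71.0, 83.6 and 97.6 per Mb. Replicate 2's own list was lowest in the outermost upstream bin and differed little among the other 4, with 50.3, 75.2, 68.4, 68.1 and 75.4 per Mb. The climb inside the start was thus seen in replicate 1's list and not in replicate 2's. Eligible sequence was summed over all lone starts, not only those of member genes. Upstream neighbours lay closer at member genes (median 652.5 bp, against 1210 bp at the other eligible genes), so the rule may bar more upstream bases there. Whether this affects the densities of the upstream bins was not tested. Over the whole window of the pooled list, lone starts had 79.3 summits per eligible Mb, divergent starts 87.5 and gene ends 92.7, with 53.4 per Mb over all autosomal sequence. Neither replicate's own list had this order. Replicate 1 had 74.2, 69.8 and 105.3 per Mb, with 53.3 over all autosomal sequence. Replicate 2 had 67.8, 137.5 and 44.0, with 51.7.

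The median member summit lay 57 bp inside the gene, with quartiles 68 bp upstream and 169.5 bp inside. The position depended on the replicate: in the replicates' own lists the median was 64.5 bp inside in replicate 1 and 27.5 bp inside in replicate 2. Upstream of the start were 169 members (37.5%, exact 95% interval 33.0 to 42.1%), and 282 lay at it or inside. The intervals of shares given here are exact Clopper-Pearson intervals and cover counting error only. Coding sequence held 184 of the summits, with 156 outside protein-coding genes, 72 in introns, 37 in 5′ UTRs, 1 in a 3′ UTR and 1 in another exon. A start that is lone among protein-coding starts is not free of all neighbours: 26 summits lay inside another protein-coding gene, 24 lay within 250 bp of an ncRNA gene, 4 of a piRNA gene and 3 of a pseudogene. When the starts of all annotated genes except piRNA genes counted as opposite-strand partners, 412 members were left.

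The highest members lay at genes of varied function. The peak at tos-1, named as a target of splicing, led with a pooled signal value of 300.4 (rank 6; chromosome V, 9343967 to 9344184), 110 bp inside the gene in coding sequence. It had rank 6 in replicate 1, with a signal value of 258, and rank 13 in replicate 2, with 42.7, so it was near the top of both lists. The peak of wwp-1, a HECT-domain ubiquitin ligase gene, followed at pooled rank 21 (chromosome I, 536711 to 537060), 236 bp upstream of the start and within 250 bp of an ncRNA gene, with ranks 28 and 36 in replicates 1 and 2. The gene T28B8.1 had 2 summits, at pooled rank 24, 134 bp upstream, and at rank 191, 68 bp inside. In replicate 2 these 2 peaks met the same single peak, at rank 82, so that list did not separate them.

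Both histone genes among the highest members lie outside the replication-dependent core histone clusters. The peak of his-72, a gene for the replacement histone H3.3, lay 35 bp inside the gene in an intron (chromosome III, 12368840 to 12369189, pooled rank 29). It ranked higher in replicate 2 (rank 12, signal value 48.2) than in replicate 1 (rank 51, 91.3). The linker histone gene hil-7 had its summit 136 bp inside, in coding sequence (chromosome IV, 6646392 to 6646483, pooled rank 31), with ranks 39 and 33. All 31-base words under these 2 peaks occur once in the genome.

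Next came Y7A9D.1 (pooled rank 37), lido-9 (rank 49), Y39E4B.6 (rank 63), dpy-17 (rank 84) and daf-19 (rank 92). The peak of dpy-17, a cuticle collagen gene whose upstream sequence is shown above, had its summit 42 bp upstream (chromosome III, 5107113 to 5107462). It stood at rank 52 in replicate 1, with a signal value of 91.3, and had no overlapping peak among the 30000 of replicate 2. The peak of daf-19, the RFX factor gene that controls ciliary genes, was 45 bp upstream (chromosome II, 10169216 to 10169565). It stood at rank 86 in replicate 1, with the summit 36 bp upstream, and at rank 25 in replicate 2, with the summit 254 bp upstream. The replicates thus shared an interval there but not a summit.

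The remaining members among the 20 highest lay at regulators and at genes of varied function. Among them, cki-1, a gene for an inhibitor of cyclin-dependent kinases, had its summit 141 bp upstream (pooled rank 182) and was far higher in replicate 2 (rank 28) than in replicate 1 (rank 739), with nearly the same summit, 142 and 145 bp upstream. The chromatin protein gene hmg-1.2, of the HMGB family, had summits 92 bp upstream and 134 bp inside (ranks 190 and 251), and its relative hmg-1.1 had one 116 bp upstream (rank 242). The aquaporin gene aqp-2 (rank 153, 128 bp upstream) and the caveolin gene cav-1 (rank 193, 8 bp upstream) were in the 1000 highest peaks of both replicates. The chemoreceptor gene srh-171 (rank 231, 106 bp inside), the mitochondrial protease gene ymel-1 (rank 238, 42 bp inside), inpp-5K (rank 138) and Y56A3A.22 (rank 130) were not. At Y56A3A.22 replicate 2 had no peak, while replicate 1 had rank 81.

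**Figure D2:**
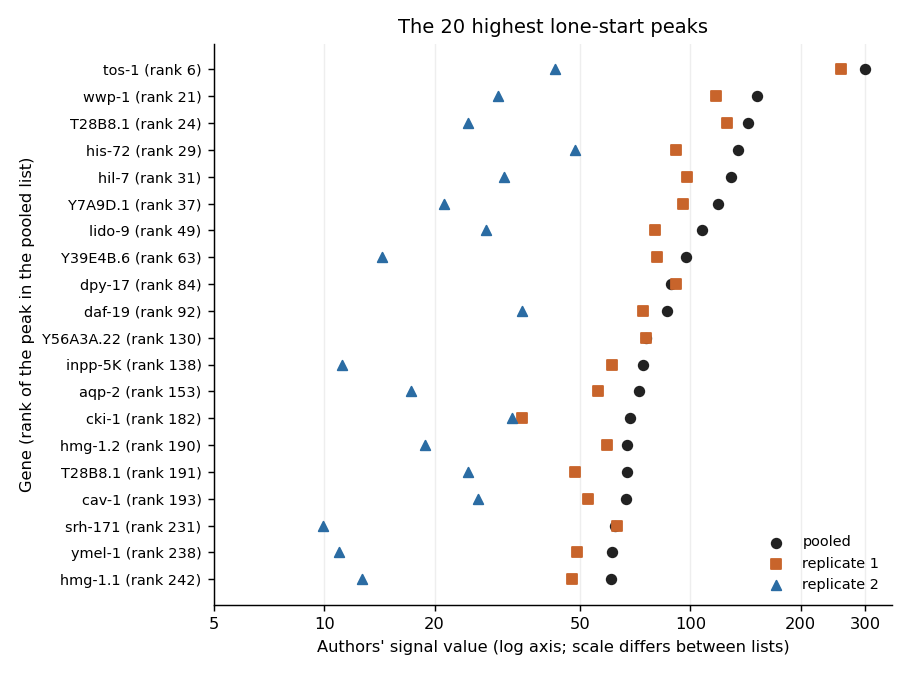
The authors' signal value (x axis, log scale) of the 20 highest lone-start peaks in the pooled list (circles) and of the overlapping peak with the nearest summit in replicate 1 (squares) and replicate 2 (triangles), with 1 row per peak. Replicate 1 lies close to the pooled value in most rows, replicate 2 lies lower, and dpy-17 and Y56A3A.22 have no triangle because no replicate 2 peak overlapped them.

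Most members were far lower than these. Pooled signal values ran from 24.5 to 300.4, with a median of 30.5 and quartiles of 26.9 and 38.1. The median pooled rank was 2451. Just inside the limit of 5000 lay etr-1 (rank 4980, signal value 24.49), sptl-3 (rank 4994, 24.47) and C43E11.12 (rank 4995, 24.47), and just past it lay zhit-1 (rank 5042, 24.39), rbm-7 (rank 5074, 24.34) and ttr-50 (rank 5127, 24.26). At the edge of the window, dph-1 and grl-11 were in at 250 bp inside and 250 bp upstream, while ucr-11 and F37A4.1 (251 bp inside) and vps-4 (251 bp upstream) were out. The nearest opposite-strand start of apb-1 was 1019 bp upstream, which kept it in, while mics-1 was out with one at 979 bp. The limits thus cut through continuous values.

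Replicate 1 held more of the members than replicate 2, as it did for autosomal peaks in general. A peak among the 5000 highest of replicate 1 overlapped 338 members (74.9%, interval 70.7 to 78.9%), against 75.7% of all autosomal pooled peaks. In replicate 2 the count was 211 members (46.8%, 42.1 to 51.5%), against 42.6%. The members were thus close to the background in both replicates. The pooled list was made from both replicates, so these overlaps are not independent of the choice of members. Both replicates held 139 members (30.8%), replicate 1 alone 199 (44.1%), replicate 2 alone 72 (16.0%) and neither 41 (9.09%). Over all autosomal pooled peaks these shares were 27.8%, 47.8%, 14.8% and 9.56%, so the members were near the background in each. The median pooled signal value was 39.0 for members in both, 29.7 for those in replicate 1 alone, 28.5 for those in replicate 2 alone and 26.0 for those in neither.

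Peaks at divergent starts and gene ends lay farther from this background than members did. Peaks at divergent starts were found at 61.3% in replicate 1 (52.1 to 69.9%) and 59.7% in replicate 2 (50.5 to 68.4%), and peaks at gene ends at 88.9% (86.0 to 91.3%) and 30.9% (27.2 to 34.8%). In the replicates' own 5000 highest peaks, lone starts held 422 of replicate 1's autosomal peaks (9.58%) and 386 of replicate 2's (9.05%), while divergent starts held 99 and 195 and gene ends 672 and 281. Lone starts were therefore the class of these 3 whose share was most alike in the replicates. The genes were less alike: of the 440 member genes, 293 had a lone-start summit in replicate 1's own list and 159 in replicate 2's.

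**Figure D3:**
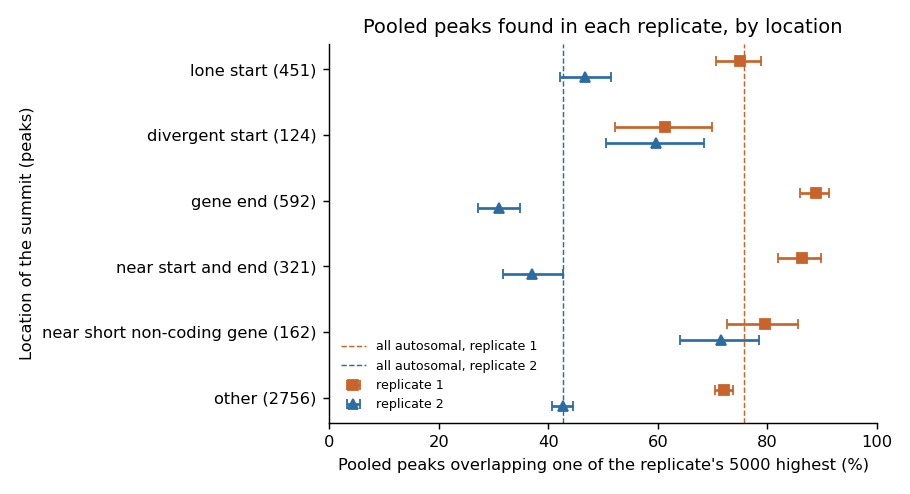
Share of pooled autosomal peaks that overlapped one of the 5000 highest peaks of replicate 1 (squares) or replicate 2 (triangles), by location of the summit, with exact 95% intervals as bars and the share of all autosomal peaks as dashed lines. Lone starts lie at 74.9% and 46.8%, beside the dashed lines at 75.7% and 42.6%, while gene ends are farthest apart.

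The heights of the members had little common order in the replicates. Any overlapping peak among the 30000 was found for 444 members (98.4%) in replicate 1 and 374 (82.9%) in replicate 2. Over all autosomal pooled peaks the shares were nearly the same, 98.6% and 82.2%. Counting each pair of replicate peaks once left 366 pairs, across which the signal values had a Spearman's rho of 0.02 and Pearson's r of the log2 values was 0.20. Over all autosomal peaks rho was −0.04 (3542 pairs). These are correlations across loci of 1 pair of libraries, and the pairs were selected on joint height, so they are descriptions. The replicate 1 summit lay within 50 bp of the pooled one for 370 of 444 members (83.3%), and the replicate 2 summit for 221 of 374 (59.1%). The pooled list was made from both replicates, so these shares do not compare the replicates with each other. Between the replicates' own summits the median shift was 56 bp, which is over that limit of 50 bp.

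**Figure D4:**
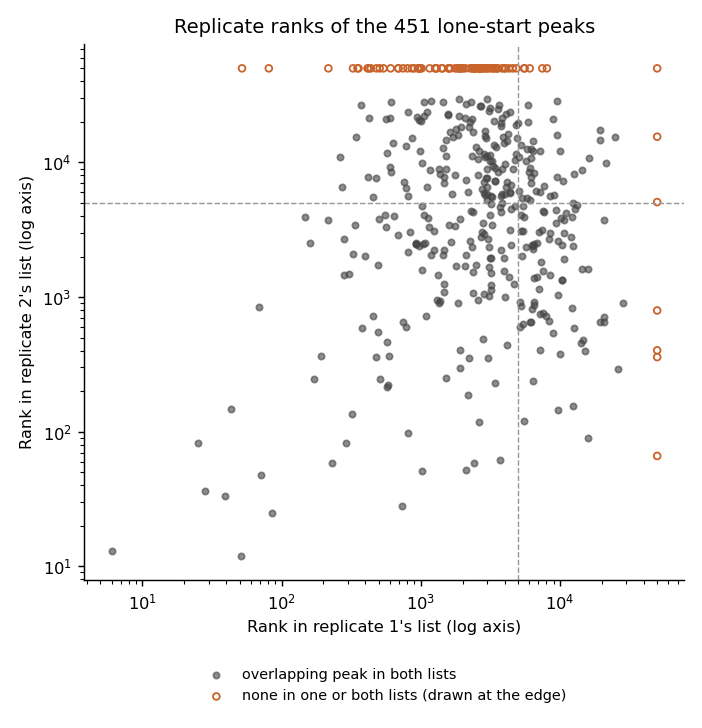
Rank of the overlapping peak in replicate 1's list (x axis, log scale) against that in replicate 2's list (y axis, log scale) for the 451 members, where rank 1 is the highest and dashed lines mark rank 5000. Points fill most of the area with little trend, and 77 open points at the upper edge had no peak in replicate 2, against 7 at the right edge with none in replicate 1.

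A small core stood high in both replicates. Among the 1000 highest peaks of both lists were 33 members (7.32%) at 29 genes, against 6.08% of autosomal peaks, and 40 members (8.87%) at 38 genes were in the authors' list thresholded by the irreproducible discovery rate (IDR), against 9.56%. Neither share stood far from its background. A member counted among the 1000 highest when any overlapping replicate peak did, not only the peak with the nearest summit. At hmg-1.1 the replicate 2 peak with the nearest summit had rank 1480, and at another member of this core it had rank 23873. The core included tos-1, wwp-1, T28B8.1, his-72, hil-7, daf-19, cki-1, hmg-1.1, hmg-1.2, aqp-2 and cav-1 from above. Others were unc-116, the kinesin-1 heavy chain gene (114 bp inside; ranks 594 and 363 in replicates 1 and 2), ash-2, a gene of the H3K4 methylation complex (110 bp upstream, ranks 380 and 590), and the homeobox gene ceh-57 (56 bp upstream, ranks 494 and 549). The gene of the unfolded protein response factor xbp-1 (6 bp upstream, ranks 454 and 722), the proteasome ATPase gene rpt-1 (128 bp upstream, ranks 746 and 653) and the ribosomal protein gene rpl-3 (222 bp upstream, ranks 478 and 361) were also among them. In this core, 17 of 33 summits lay upstream of the start (51.5%), against 169 of 451 over all members.

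Of 13741 autosomal genes with a lone start and eligible sequence, 3.2% had a member (440 genes), as did 2.98% in replicate 1's own list and 2.77% in replicate 2's. The 27 gene lists were drawn up with earlier results of these data known, some genes belong to several, and they are given below in order of share, as counts with no test. Proteasome and ubiquitin genes, which degrade proteins, had the highest share, 9 of 27 (33.3%, 16.5 to 54.0%), among them rpt-1, ubc-25, ubc-3, the SUMO-conjugating enzyme gene ubc-9, the ubiquitin-activating enzyme gene uba-1 and the core subunit genes pas-1 and pas-5. Each replicate's own list held fewer of them, 6 of 27 in replicate 1 and 3 of 27 in replicate 2. Histone genes had 3 of 16 (18.8%, 4.0 to 45.6%), with hil-5 beside his-72 and hil-7, and 4 and 2 in the own lists of replicates 1 and 2. Of the 56 autosomal histone genes, only these 16 had a lone start with eligible sequence. Spliceosome and splicing genes had 9 of 61 (14.8%, 7.0 to 26.2%), led by snrp-3, repo-1 and cyn-9, with 11 in replicate 1's own list and 5 in replicate 2's.

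Several further lists of housekeeping genes lay between 12.9% and 14.6%, though some were uneven between the replicates. Heat shock and ER chaperone genes had 6 of 41 (14.6%), led by xbp-1, the calreticulin gene crt-1 (32 bp upstream, pooled rank 398) and the constitutive Hsp70 gene hsp-1, and the replicates' own lists were alike, with 6 in replicate 1 and 5 in replicate 2. Translation factor and tRNA synthetase genes had 5 of 36 (13.9%), with 1 gene in replicate 1's own list and 6 in replicate 2's. Genes of the respiratory chain, V-ATPase and glycolysis had 8 of 59 (13.6%), with vha-2, spe-5 and cox-5A the highest. This list ran the other way, with 9 in replicate 1's own list (15.3%) and 3 in replicate 2's (5.08%). Cytosolic ribosomal protein genes had 4 of 31 (12.9%), namely rpl-3, rps-16, rpl-29 and rpl-24.2, with 3 and 2 in the own lists of replicates 1 and 2.

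The lists between 4.84% and 12.2% were also mostly higher in replicate 1. Actin, tubulin and motor genes had 9 of 74 (12.2%), led by unc-116 and the alpha-tubulin gene tba-2, with 8 in replicate 1's own list and 5 in replicate 2's. Cell cycle and replication genes had 8 of 75 (10.7%), led by cki-1, the spindle checkpoint gene mdf-1 and cdc-48.1. Replicate 1's own list held 8 of these genes and replicate 2's only 2 (2.67%, against 2.77% of all eligible genes), so without replicate 1 they did not stand above the background. Muscle genes had 5 of 53 (9.43%), with the calponin gene cpn-3, the MyoD-family factor gene hlh-1 and the calcium pump gene mca-3 first, and 8 and 3 in the own lists of replicates 1 and 2. The list of bHLH, GATA, forkhead and Sox factors had 4 of 50 (8%), with hlh-1, hlh-2, hif-1 and egl-46, the last a zinc-finger factor gene that does not belong to these families by its domain, and its own-list counts were 5 and 2. Chromatin regulator genes had 7 of 88 (7.95%), led by hmg-1.2, hmg-1.1 and ash-2, with 10 and 9, close to each other in the replicates. The synaptic and pan-neuronal list also had 7 of 88, led by unc-116, unc-16 and mec-8, with 8 and 4. Being on this list does not make a gene specific to neurons: unc-116 and tba-1 are also on the actin, tubulin and motor list. Small GTPase and vesicle traffic genes had 5 of 66 (7.58%), with arl-13, unc-101 and apb-1 first, and 7 and 5. Genes of Wnt, Notch, TGF-beta and EGF signalling had 4 of 60 (6.67%), including the frizzled receptor gene mig-1, the TCF factor gene pop-1 and the kinase gene gsk-3, with 4 and 3. Intestine genes had 2 of 30 (erm-1 and cpl-1), with 1 in each replicate's own list, and axon guidance and adhesion genes 3 of 52 (zig-8, fmi-1 and kal-1), with 4 and 2. The cilia list had 3 of 55, with 4 and 1, from daf-19, arl-13 and tmem-258, the last matched by its gene symbol alone and better known as a gene of protein glycosylation in the ER. RNA polymerase II, Mediator and elongation genes had 3 of 62 (4.84%, 1.0 to 13.5%, with mdt-17, taf-9 and emb-5), and 3 and 4.

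The remaining lists, from the epidermis to the large receptor families, lay at 2.94% or below. Epidermis and apical matrix genes had 2 of 68 (noah-1 and erm-1), homeobox, paired and T-box genes 2 of 92 (ceh-57 and zag-1), and neuropeptide and insulin genes 2 of 98 (nlp-29 and ins-10). Nuclear hormone receptor genes had 3 of 229 (1.31%, with nhr-49, nhr-274 and nhr-114), and cuticle collagens 1 of 125 (0.8%), the gene dpy-17. Chemoreceptor genes, each typically expressed in few neurons, had 5 of 1186 (0.422%, 0.137 to 0.981%), namely srh-171, str-141, srg-45, srlf-1 and srt-42. Genes of the C-type lectin, F-box, MATH and BTB families had 2 of 521 (0.384%, with clec-89 and fbxc-51). Germline and early embryo genes had 0 of 57, which allows a share of up to 5.26% by the 3 counts that a count of 0 allows and 6.27% by the exact interval, while the replicates' own lists held 1 and 2 of them.

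**Figure D5:**
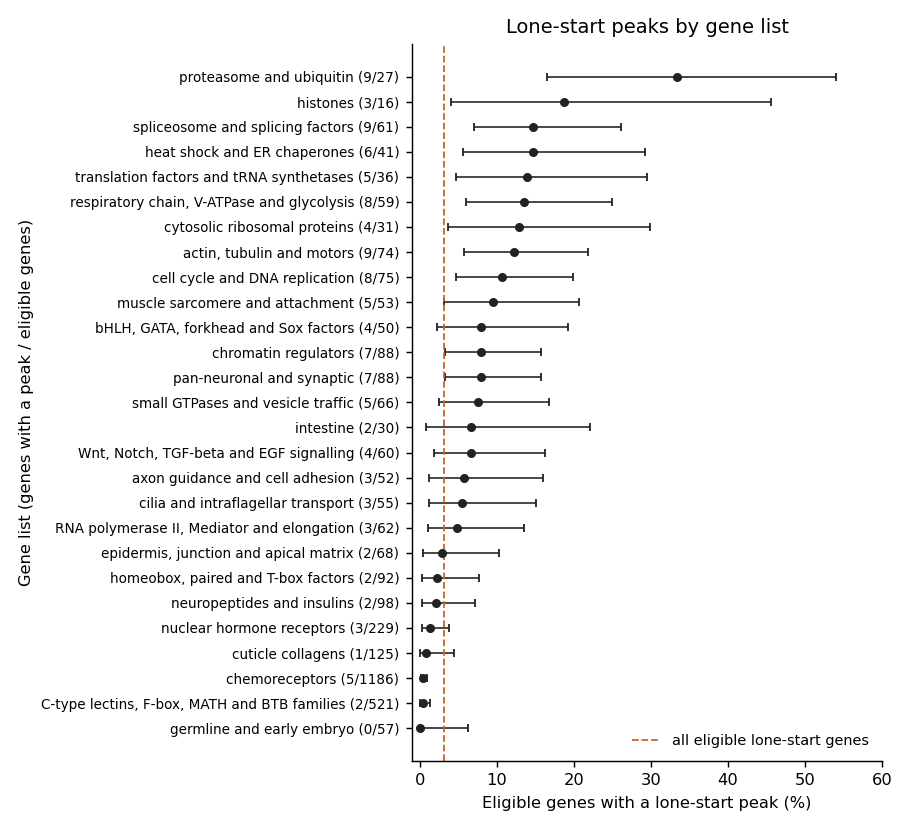
Share of eligible lone-start genes that held a member (x axis, percent) in 27 gene lists (y axis, with the counts), with exact 95% intervals as bars and the 3.2% of all eligible genes as a dashed line. Proteasome and ubiquitin genes lie farthest above the line, at 33.3%, and chemoreceptor and lectin, F-box, MATH and BTB genes lie below it with their whole intervals.

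Member genes differed from the other 13301 eligible genes in sequence features at the start, which the rule did not use. The acceptor word TTTCAG ended within 10 bp of the start at 133 of 440 member genes (30.2%, 26.0 to 34.8%), against 22.2% (21.5 to 22.9%) of the others. With any base in the third position, TTNCAG was found at 50.9% of member genes and 34.7% of the others. Members at starts with TTTCAG had their summits nearer to or upstream of the start: the median was 31 bp inside for 137 members with the word and 74.5 bp for 314 without it. The replicates' summits at these members had the same order, with 13 against 71 bp in replicate 1 and 24 against 79 bp in replicate 2. In the replicates' own lists of lone-start peaks the medians were 17.5 against 76.5 bp in replicate 1 and 20 against 35 bp in replicate 2, so the gap was smaller in replicate 2's list.

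Base composition and words at the start also differed. The median GC content over the start and the 100 bp on either side was 38.3% at member genes and 35.8% at the other eligible genes. TATAAA was less frequent at member genes (18.9% against 26.9%), as was TGATAA (14.5% against 21.0%), both words rich in A and T. GAGAGA was more frequent (20.7% against 14.1%), as was CTGCGTCTC (2.95% against 1.37%, 13 member genes). TTTTTTTT (19.1% against 19.7%) and CACGTG (3.86% against 4.69%) were close. How much of these differences goes with GC content was not tested. Over the same width at the summits, the median GC was 40.3% for members, 40.3% at divergent starts, 37.8% at gene ends and 40.8% over all autosomal peaks. There GAGAGA was at 20.8% of members, 16.1% of divergent starts and 16.6% of gene ends, but at 19.3% of all autosomal peaks. CTGCGTCTC was at 2.44% of member summits, below divergent starts (3.23%), gene ends (3.38%) and all autosomal peaks (3.27%). Neither word was thus particular to members at the summits.

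Member genes also had closer upstream neighbours. The rule uses distances to gene ends and to opposite-strand starts, so the neighbour's distance and strand are not independent of it. The median distance to the next gene upstream was 652.5 bp for member genes and 1210 bp for the others, and that neighbour lay on the same strand for 72.3% and 62.5%. Several annotated transcripts were found at 38.9% of member genes and 28.6% of the others, and the median gene length was 2288 bp against 2031 bp. By chromosome, 4.57% of eligible genes on chromosome I had a member, 3.51% on II, 4.33% on III, 2.93% on IV and 1.88% on V, where 4106 eligible genes lie. Mapping limits touched few members: at 432 of 451 all 31-base words under the peak occur once in the genome, and at 3 (mps-2, T22C1.11 and H20J04.4, named after their values were seen) under 90% do.

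At 11 genes the start held 2 members, namely T28B8.1, hmg-1.2, cav-1, xbp-1, ubc-25, mca-3, phdh-1, R107.5, K03H1.7, ztf-8 and inx-7. Replicate 1 had a separate peak for each member at 8 of these genes and 1 shared peak at 3 (K03H1.7, mca-3 and phdh-1). Replicate 2 had separate peaks at 2 (R107.5 and ztf-8), 1 shared peak at 8 and none at phdh-1. At 6 genes replicate 1 had 2 peaks where replicate 2 had 1. One of them was cav-1, whose second summit lay 191 bp inside (pooled rank 3967), against 8 bp upstream for the first. Replicate 2 had a single peak there, at rank 59, with its summit 158 bp inside, while replicate 1 had summits 91 bp upstream and 146 bp inside, at ranks 232 and 2422. At xbp-1 the summits were 6 bp upstream and 207 bp inside (pooled ranks 359 and 1475), and replicate 2 had 1 peak, 51 bp inside. At hmg-1.2 replicate 2's single summit, 135 bp inside, lay by the second pooled summit and not the first.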

How the data were processed

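AMA-1 ChIP-seq peak lists of 2 biological replicates were analysed. The authors deposited relaxed lists of 30000 peaks for each replicate and for both pooled, and an IDR-thresholded list of 476 peaks, on ce11 (the ce10 lists were not used here). Peak height is the authors' deposited signal value, whose scale is not stated, and it ranked peaks within a list. The authors also deposited −log10 q-values, which were 2.83 at most in the pooled list and were not used. At the member of median height, B0495.7 (pooled rank 2451), the value was 1.16, which is short of the usual limit for significance. Many members were therefore not significant calls by these values. For the aligner, peak caller, versions and read depth no statement was found (not given in the sources used here), and whether the replicates came from separate cultures is given only by the labels' word biological. Summits are the authors' positions, at the centre of the interval for 449 of 451 members, and nearly all peaks of a list were equally wide.

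Summits were placed against Ensembl release 115 genes of the same assembly with Python 3.11.15, pandas 2.3.3, numpy 2.4.6 and scipy 1.17.1, and GC content and words were read from the RefSeq genome sequence over 100 bp on either side of a start or summit. A replicate peak matched a pooled peak by an overlap of at least 1 bp, and where several did, the nearest summit gave the rank. Eligible sequence is every base where a summit would meet the rule. The location rule was tested on a made-up annotation with known answers. With 1 group there is no comparison between conditions and no p-value is given.

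The members and gene lists were chosen with earlier results of these data known. Genes are named when at the 20 highest members, among up to 3 members of each list, next to the limits, in the 1000 highest of both replicates (up to 20) or with 2 summits, and further members of short lists are named after their values were seen. Alternatives covered the window, the number of peaks, the partner distance, transcript starts, non-coding partners, the IDR list, the overlap, each replicate alone, and the GC and acceptor windows.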

Additional observations from a re-analysis of the deposited data

How the results depend on the processing

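The number of lone-start peaks was 299 with a window of 100 bp, 228 among the 2500 highest pooled peaks, 787 among the 10000 highest and 40 in the IDR list, and between 386 and 422 with either replicate left out. It stayed within 1.5 times of 451 under the other 3 alternatives. The window of 100 bp also lowered the limits for gene ends and short non-coding genes to 100 bp, so it let in peaks that are not members. Under the members' own conditions the pooled list had 84 summits at 1 to 100 bp upstream and 96 at 0 to 99 bp inside. The median summit offset was 26 bp with the window of 100 bp, which narrows the range of offsets by construction, and between 27.5 bp (without replicate 1) and 64.5 bp (without replicate 2) with either replicate left out. The median GC was 43.0% in the IDR list. The share of starts with TTTCAG was 32.2% among the 10000 highest, 27.4% with transcript starts, 26.3% in the IDR list, between 30.6 and 32.8% with either replicate left out, 23.9% with the word within 3 bp (14.9% of other genes) and 50.9% with TTNCAG. The share with a replicate 1 peak was 78.9% with the window of 100 bp, 91.7% among the 2500 highest, 52.9% among the 10000 highest, 100% in the IDR list and 22.6% with the 1000 highest replicate peaks. The share with a replicate 2 peak was 38.8%, 58.3%, 35.1%, 77.5% and 19.3% under the same 5 alternatives, and 41.0% with an overlap of at least 50% of both intervals. The cause of the other shifts was not tested. No paired analysis was possible because both replicates belong to 1 group. Read depth is unknown, so what it limits cannot be stated.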
